A study of Homo sapiens with 12 samples.

Results

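The mRNA of UPP1, the enzyme that splits uridine, and of the enzymes that make UMP and CTP was followed in KP4 cells, a line labelled as pancreatic ductal carcinoma, under metformin, FK866 or both. The 10 genes were taken by name from the table of 36601 genes. They comprise UCK1, UCK2 and UCKL1 of uridine salvage, listed together with UPP1 although UPP1 splits uridine. The others are CAD, DHODH and UMPS of de novo UMP synthesis, and CTPS1, CTPS2 and CDA of CTP synthesis and cytidine deamination. All 10 were found, and 9 averaged 10 or more normalized counts over the 12 libraries and were tested, as were 15376 genes in all. The 4 treatments lasted 24 h and had 3 libraries each, namely vehicle (DMSO), 10 mM metformin (Met), 5 nM FK866 (FK) and the combination of the same doses (Met+FK). The cells of every group were unmodified KP4 cells grown in the same medium with serum. FK866 was dissolved in DMSO and metformin in medium, and the sources used here do not say whether metformin cells also received DMSO. The study used metformin to inhibit complex I of the respiratory chain and FK866 to inhibit NAMPT, the enzyme of NAD salvage. Nothing says that the 3 libraries of a treatment came from separate cultures, so the p-values measure the spread between these libraries, which may be technical.

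Cells obtain pyrimidine nucleotides in different ways. De novo synthesis builds UMP from glutamine, bicarbonate and aspartate through CAD, DHODH and UMPS, and DHODH, in the inner mitochondrial membrane, passes its electrons to ubiquinone and so depends on the respiratory chain. Salvage takes up uridine and phosphorylates it to UMP with the uridine-cytidine kinases, whereas uridine phosphorylase instead splits uridine into uracil and ribose 1-phosphate, a sugar that can enter glycolysis. CTP synthase then converts UTP into CTP, the only route to cytidine nucleotides other than cytidine salvage.

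The bases just upstream of 4 genes are shown because the results turn on the first 3, UPP1, CTPS1 and UMPS, and because DHODH and UMPS hold a searched word. RefSeq promoters (build GRCh38.p14) were found for all 10 genes, in 15 windows because some genes have several start sites, and the first listed window is printed without its transcribed part. The words searched on both strands were CACGTG (E-box), TGATGNAA (a part of the C/EBP-ATF response element) and TGACGTCA (CRE). Capitals mark a word, and sequences without capitals hold none. The windows are chr7:48089004-48089253 (plus strand) for UPP1, chr1:40979446-40979695 (plus strand) for CTPS1, chr3:124730202-124730451 (plus strand) for UMPS and chr16:72008494-72008743 (plus strand) for DHODH.
UPP1: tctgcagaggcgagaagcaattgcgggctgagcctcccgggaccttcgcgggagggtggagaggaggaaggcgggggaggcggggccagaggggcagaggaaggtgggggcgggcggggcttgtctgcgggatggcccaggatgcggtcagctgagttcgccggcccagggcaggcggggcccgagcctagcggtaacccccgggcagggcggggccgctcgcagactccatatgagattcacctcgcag
CTPS1: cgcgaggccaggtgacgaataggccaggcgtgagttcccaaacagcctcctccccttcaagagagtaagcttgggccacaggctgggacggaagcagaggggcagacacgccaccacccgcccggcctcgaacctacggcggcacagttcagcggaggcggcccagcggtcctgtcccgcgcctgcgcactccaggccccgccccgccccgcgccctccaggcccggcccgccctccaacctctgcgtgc
UMPS: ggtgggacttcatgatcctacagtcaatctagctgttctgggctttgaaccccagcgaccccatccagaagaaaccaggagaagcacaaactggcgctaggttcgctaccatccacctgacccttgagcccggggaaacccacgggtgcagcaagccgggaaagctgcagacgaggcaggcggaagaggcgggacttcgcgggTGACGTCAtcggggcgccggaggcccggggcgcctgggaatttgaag
DHODH: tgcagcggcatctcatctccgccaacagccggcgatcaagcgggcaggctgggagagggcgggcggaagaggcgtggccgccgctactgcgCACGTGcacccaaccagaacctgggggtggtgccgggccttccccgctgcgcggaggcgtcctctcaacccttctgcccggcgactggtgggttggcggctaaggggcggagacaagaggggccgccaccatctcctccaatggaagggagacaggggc
Of the 15 windows, taken at 300 bases, 2 held the E-box, in DHODH and UCKL1, against 7.26% of 35116 windows in all. UMPS alone held the CRE, whose first base lay at position -47 from the start site and which 1.85% of all windows held. None of the 15 windows, the 3 of UPP1 included, held the C/EBP-ATF word, which 3.62% of all windows held. A match is a description of letters and no evidence of binding. The first window of CDA held 8 CpG dinucleotides, the first windows of the other 9 genes between 20 and 41, and the median of all windows was 14.

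Each library held between 30667735 and 41052203 read pairs assigned to genes. The values are normalized counts, that is, gene counts divided by a size factor per library. They are therefore levels relative to the other RNA of a library, and fewer cells and less RNA per cell cannot be told apart. The epithelial keratins KRT18 and KRT8 had means of 13174 and 2728 normalized counts over the 12 libraries, and the other genes of the 7-gene ductal list were lower, with means of 247.7 for KRT7, 103.2 for MUC1, 47.4 for CDH1, 33.7 for KRT19 and 8.93 for EPCAM, while the mesenchymal marker VIM had a mean of 103580 in the same unit. Markers of leukocytes (PTPRC), endothelium (PECAM1) and fibroblasts (COL1A1) had means of 195.7, 7.10 and 138.7, and the acinar markers CPA1 and PRSS1 were at or near 0. With Met, 24.9% of all genes tested were higher and 25.9% lower than with DMSO at an adjusted p under 0.05 in limma. Of the 6 ductal markers tested, 1 was higher with Met, CDH1 (log2 difference 1.07, from 28.5 to 61.4, adjusted p = 0.000831 in limma), and 3 were lower, KRT19 (-1.26), KRT18 (-0.82) and KRT8 (-0.29). Their part in the results was not tested.

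Met raised UPP1 and CTPS2 and lowered CTPS1, UMPS, UCK2 and DHODH, FK lowered CTPS1, UCK2 and DHODH, and Met+FK changed the same 6 genes as Met in the same directions. Between Met+FK and Met, UPP1 was the only tested member that passed in limma. A gene was called when its adjusted p-value in limma was under 0.05, and a differentially expressed gene (DEG) also had a fold change over 1.5. With Met, 2 of the 9 tested genes were higher and 4 lower than with DMSO, against 24.9% and 25.9% of all genes tested, and 2 were DEGs, against 23.0%. With FK, 0 were higher in limma, edgeR and DESeq2, and 3 were lower than with DMSO, against 11.3% and 9.84%, and none was a DEG, against 3.49%. With Met+FK, 2 were higher and 4 lower than with DMSO, against 26.1% in each direction, and 3 were DEGs, against 25.1%. Met+FK against Met gave 1 higher and 0 lower, against 0.0911% and 0.0065%, with no DEG among the members, against 0.0585%. Met+FK against FK gave 1 higher and 2 lower, against 20.5% and 21.7%, and 2 DEGs, against 18.6%. The members were chosen with earlier results of these data known, so none of these counts is a result about the group as such. In the comparisons of metformin with DMSO or FK, a large share of all genes also changed in each direction. The levels and differences of each gene are given in turn.

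**Figure D1:**
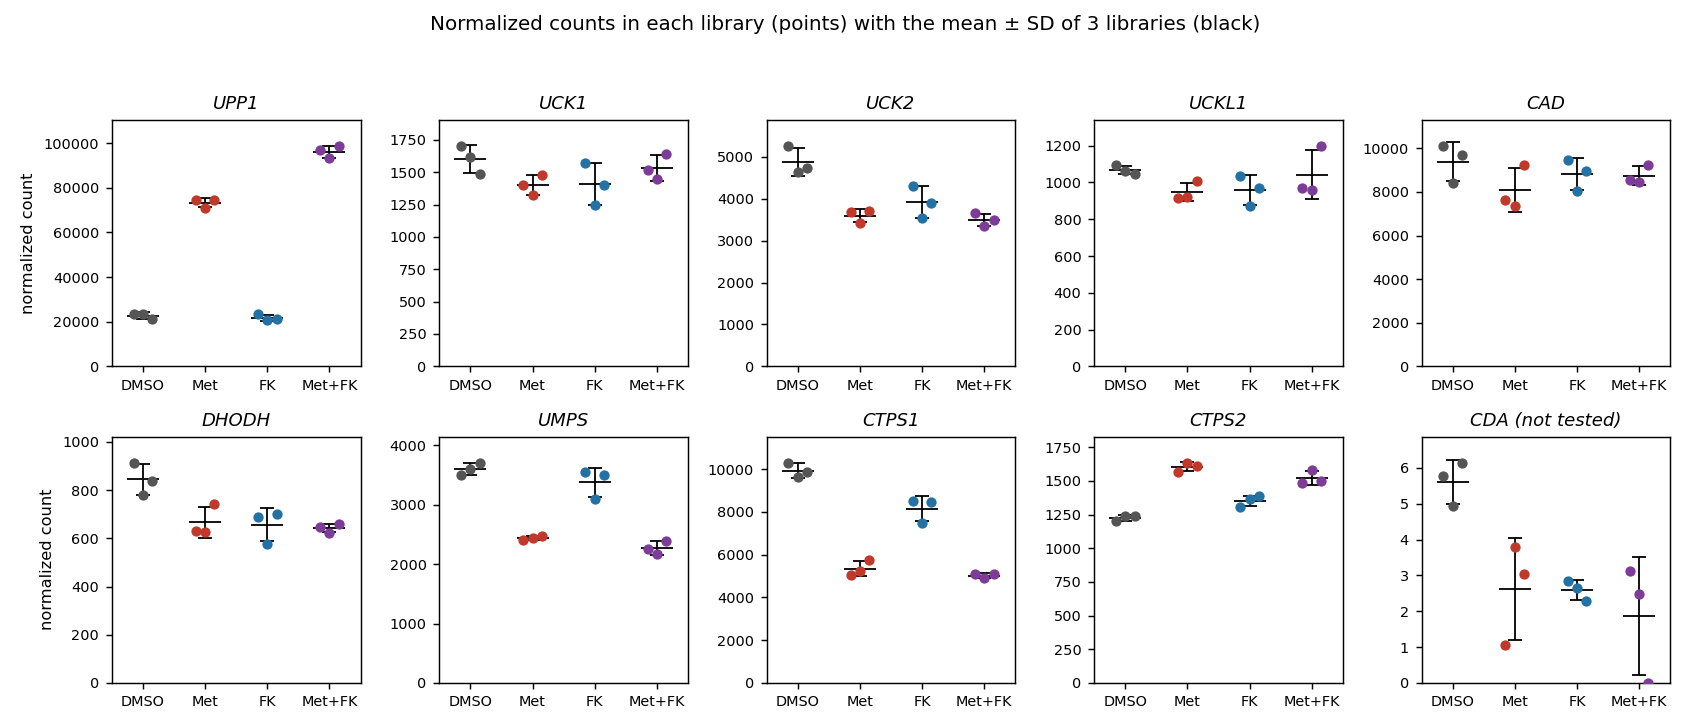
Normalized counts (vertical axes, from 0) of the 10 genes in each of the 12 libraries (points, 3 per treatment), with the mean ± SD in black. UPP1 rises from between 21081 and 23641 with DMSO to between 70847 and 74584 with Met and between 93124 and 98498 with Met+FK, while CTPS1 and UMPS lie lower with Met and Met+FK than with DMSO.

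UPP1 (chr7:48088628-48108736, hg38, plus strand) was the most abundant of the 10 mRNAs and the one that moved most. Its normalized counts were 23641, 23395 and 21081 with DMSO and 23341, 20895 and 21232 with FK. They were 74584, 70847 and 74365 with Met and 96755, 93124 and 98498 with Met+FK. The DMSO and FK libraries overlapped, every Met library lay above both, and every Met+FK library lay above every Met library. Met raised UPP1 from 22706 ± 1412 to 73265 ± 2097 normalized counts (SD, n = 3), a fold change of 3.23 (log2 difference 1.69 ± 0.065 SE, adjusted p = 2.6e-10 in limma). FK alone gave a log2 difference from DMSO of -0.057 (95% interval -0.20 to 0.082, adjusted p = 0.522). Met+FK raised UPP1 to 96126 ± 2742 (SD, n = 3), 4.24-fold over DMSO (log2 difference 2.08, adjusted p = 1.53e-11) and 4.41-fold over FK (log2 difference 2.14, adjusted p = 2.06e-11).

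Adding FK to Met raised UPP1 by a further 31.2% (log2 difference 0.39 ± 0.065 SE, adjusted p = 0.028 in limma), below the fold of 1.5 that defines a DEG. This call was made by edgeR and DESeq2 on the read pairs too, but it was lost in each of the 6 fits that left out 1 Met or Met+FK library (adjusted p between 0.0837 and 0.231, log2 difference between 0.37 and 0.41) and when all 26798 genes with any value entered the fit (adjusted p = 0.174). Only 15 genes in all passed in this comparison, so the adjustment is steep, and 1051 of the 15376 genes had an unadjusted p under 0.05. A share of 0.05 would pass that cut with no difference at all. By size, UPP1 had the 365th largest difference of the 15376 genes between Met+FK and Met, the 154th between Met and DMSO and the 49th between Met+FK and FK.

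Per kilobase of the canonical transcript in GENCODE 44, UPP1 ranked 178th of 15324 genes with DMSO at 13650 normalized counts per kb, 165th with FK, 36th with Met and 26th with Met+FK at 57770 counts per kb. Its share of all read pairs rose from 0.063% with DMSO to 0.221% with Met and 0.283% with Met+FK, and was 0.0615% with FK. The order of its levels was therefore FK and DMSO, which did not differ beyond their spread, then Met, then Met+FK.

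The uridine-cytidine kinases, which phosphorylate uridine and cytidine and so carry out the salvage step itself, did not rise with UPP1. UCK2 (chr1:165827614-165911618, plus strand), the more abundant kinase, was at 5247, 4638 and 4739 normalized counts with DMSO and at 3675, 3422 and 3698 with Met. It was at 4309.6, 3541 and 3896 with FK and at 3648, 3352 and 3491 with Met+FK. All DMSO libraries lay above all treated libraries, and the other 3 groups overlapped. UCK2 fell by 0.44 on the log2 scale with Met (± 0.082 SE, adjusted p = 0.000479 in limma), by 0.32 with FK (adjusted p = 0.0245) and by 0.48 with Met+FK (adjusted p = 0.000206), each against DMSO, and none of these reached the fold of 1.5. Between Met+FK and FK its log2 difference was -0.16 (adjusted p = 0.132), which passed without FK replicate 2 (adjusted p = 0.0322) or with a GC and length trend removed from each library (-0.21, adjusted p = 0.00933).

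UCK1 (chr9:131523801-131531264, minus strand), the other kinase, had 1602 ± 106, 1402 ± 79.2, 1408 ± 164 and 1534 ± 99.0 normalized counts with DMSO, Met, FK and Met+FK (SD, n = 3). UCKL1 (chr20:63939829-63956416, minus strand), a related kinase-like protein, had 1068 ± 24.3, 948 ± 51.1, 959 ± 82.7 and 1042 ± 133 in the same order. Neither gene passed in any comparison of limma. Their log2 differences between Met and DMSO were -0.19 (95% interval -0.39 to 0.0093) for UCK1 and -0.17 (-0.38 to 0.035) for UCKL1. UCK1 passed between FK and DMSO without FK replicate 1 (log2 difference -0.27, adjusted p = 0.0429). With 59.7% and 58.3% GC, the canonical transcripts of UCKL1 and UCK1 were the richest of the 10, and with the GC and length trend removed their differences between Met and DMSO were -0.0090 and -0.036. Exons of UCK1 overlap POMT1 on the other strand, those of UCK2 overlap TMCO1 and a further antisense gene, and those of UCKL1 overlap UCKL1-AS1. The strand setting of the counting is not given in the sources used here, so it is not known how reads in the overlapping stretches were counted.

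Of the de novo enzymes, UMPS fell with metformin, DHODH fell with each treatment against DMSO, and CAD did not pass. CAD (chr2:27217369-27243943, plus strand), the protein of the first steps from glutamine and bicarbonate to dihydroorotate, had 10089, 8393 and 9693 normalized counts with DMSO and 7642, 7377 and 9221 with Met. It had 9482, 8052 and 8948 with FK and 8534, 8464 and 9247 with Met+FK. The 4 groups overlapped, with DMSO replicate 2 low and Met replicate 3 high in their groups. The log2 difference between Met and DMSO was -0.22 (95% interval -0.42 to -0.016, adjusted p = 0.0674 in limma). CAD passed in that comparison without DMSO replicate 2 (-0.30, adjusted p = 0.0212), without Met replicate 3 (-0.32, adjusted p = 0.0104) and with the GC and length trend removed (-0.17, adjusted p = 0.00991). In the other 4 comparisons of treatments its differences lay between -0.099 and 0.12.

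DHODH (chr16:72008588-72027664, plus strand), which oxidizes dihydroorotate to orotate in mitochondria, was the least abundant of the tested members. It had 913, 781 and 839 normalized counts with DMSO and 631, 626 and 742 with Met. With FK it had 690.0, 577 and 700.2, and with Met+FK 648, 623 and 659. Every treated library lay below every DMSO library, and the 3 treated groups overlapped. DHODH fell by 0.34 on the log2 scale with Met (± 0.10 SE, adjusted p = 0.0112 in limma), by 0.37 with FK (adjusted p = 0.0293) and by 0.39 with Met+FK (adjusted p = 0.00491). The fall with Met did not pass without DMSO replicate 1 (adjusted p = 0.0575), without Met replicate 2 (adjusted p = 0.05) or with libraries scaled to equal totals (adjusted p = 0.0705).

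UMPS (chr3:124730433-124749273, plus strand), which turns orotate into UMP, had 3511, 3603 and 3705 normalized counts with DMSO and 3552, 3099 and 3494 with FK. It had 2409, 2442 and 2483 with Met and 2253, 2169 and 2394 with Met+FK. The 6 libraries with metformin all lay below the 6 without it, while DMSO and FK overlapped. UMPS fell by 32.2% with Met (log2 difference -0.56 ± 0.073 SE, adjusted p = 2.11e-05 in limma). With Met+FK it fell by 37.0% against DMSO (-0.67, adjusted p = 3.17e-06), which made it a DEG, and it fell by 32.7% against FK (-0.57, adjusted p = 1.89e-05). FK alone gave -0.095 against DMSO (95% interval -0.25 to 0.060, adjusted p = 0.326). The fall of UMPS passed in every alternative run for the Met to DMSO, Met+FK to DMSO and Met+FK to FK comparisons.

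The CTP synthases, which aminate UTP to CTP, moved in opposite directions with metformin. CTPS1 (chr1:40979688-41012565, plus strand) had 10294, 9620.1 and 9881 normalized counts with DMSO and 8519, 7484 and 8465 with FK. It had 5039.8, 5256 and 5763 with Met and 5093, 4886 and 5085 with Met+FK. The libraries with metformin lay below all others, and those with FK alone lay below all DMSO libraries. Against DMSO, CTPS1 fell by 46.2% with Met (log2 difference -0.89 ± 0.073 SE, adjusted p = 2.49e-07 in limma) and fell by 49.4% with Met+FK (-0.98, adjusted p = 6.78e-08). With FK its log2 difference from DMSO was -0.29 (adjusted p = 0.0242), and Met+FK gave -0.70 against FK (adjusted p = 2.82e-06). CTPS1 had the 641st most negative difference of 15376 genes between Met and DMSO.

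CTPS2 (chrX:16587999-16712936, minus strand), the second and much less abundant CTP synthase, had 1203, 1237 and 1239.9 normalized counts with DMSO and 1569.9, 1634 and 1612 with Met. It had 1309, 1363 and 1386 with FK and 1488, 1584 and 1499.5 with Met+FK. The DMSO libraries were the lowest, the FK libraries lay between, and the Met and Met+FK libraries were the highest and overlapped. Met raised CTPS2 by 30.8% (log2 difference 0.39 ± 0.069 SE, adjusted p = 0.000319 in limma) and Met+FK by 24.2% (0.31, adjusted p = 0.00152). FK alone gave 0.14 against DMSO (95% interval -0.0063 to 0.29, adjusted p = 0.133). Met+FK gave 0.17 against FK (adjusted p = 0.0573), which passed in edgeR (adjusted p = 0.0488), DESeq2 (adjusted p = 0.0437), with TMM scaling, with equal totals and with the GC and length trend removed.

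The falls of CTPS1, UCK2 and DHODH with FK alone lay near the threshold. All 3 calls were lost without DMSO replicate 1 (adjusted p between 0.112 and 0.129), without DMSO replicate 3 (between 0.0602 and 0.075), without FK replicate 2 (between 0.11 and 0.137) and when only the DMSO and FK libraries were fitted (between 0.0711 and 0.0733). The log2 differences kept their sign and stayed between -0.32 and -0.23 for CTPS1, between -0.39 and -0.25 for UCK2 and between -0.42 and -0.28 for DHODH with 1 library left out. Over all genes, 3251 were called between FK and DMSO in the fit of all libraries, against 133, 380 and 236 without those replicates in turn and 152 with only the DMSO and FK libraries.

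CDA (chr1:20589086-20618903, plus strand), which deaminates cytidine to uridine, was barely detected. It had between 0 and 6 read pairs per library and 38 in all, which left it out of the test. Its normalized counts were 5.77, 4.93 and 6.14 with DMSO, 1.05, 3.78 and 3.04 with Met, 2.83, 2.65 and 2.30 with FK, and 3.14, 2.47 and 0 with Met+FK. The DMSO libraries were the highest, at counts too low to weigh in single libraries.

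**Figure D2:**
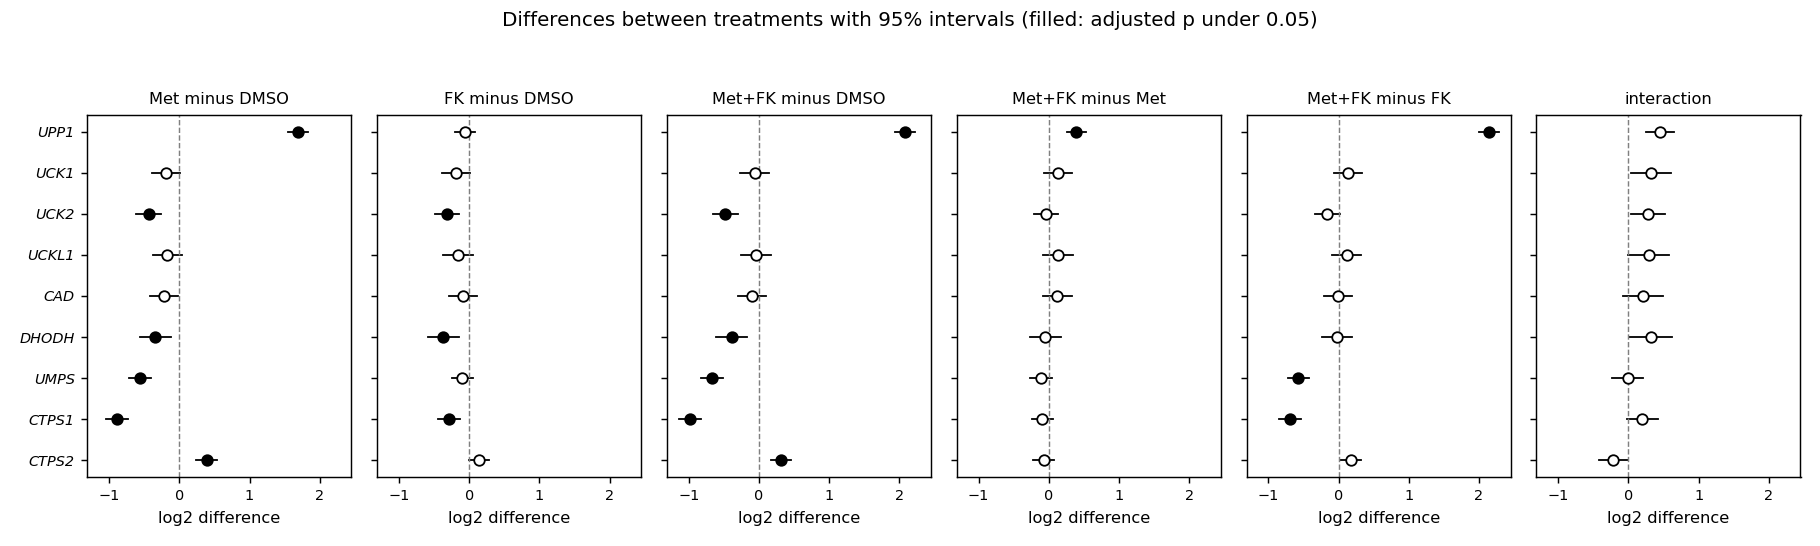
Log2 difference (horizontal axes) of the 9 tested genes in the 5 comparisons of treatments and in the interaction, with 95% intervals from limma, where a filled circle marks an adjusted p under 0.05. UPP1 is the only gene far to the right with metformin, at 1.69 in Met, 2.08 in Met+FK against DMSO and 2.14 in Met+FK against FK, CTPS1 and UMPS lie to the left in those comparisons, and in Met+FK against Met only UPP1 is filled.

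The interaction asked whether the effect of FK differed with and without metformin, as (Met+FK minus Met) minus (FK minus DMSO). Among the 9 tested genes, 0 passed in limma, against 0.0585% of all genes, and 5 of the 9 had an unadjusted p under 0.05, as did 4695 of 15376 genes. In edgeR none passed either, and in DESeq2 1 did, UPP1, as did 5.67% of all genes. In the limma fit with the replicate number as a block, UPP1, UCK1, UCK2 and DHODH passed (adjusted p between 0.00474 and 0.0417), as did 32% of all genes. The same numbers deviated together between DMSO and FK and between Met and Met+FK, and not in every pair across them. UPP1 had the largest value, 0.45 ± 0.093 (SE, log2, adjusted p = 0.085), since FK gave -0.057 without metformin and 0.39 with it. Its interaction passed in DESeq2 (adjusted p = 0.00679) and in limma without FK replicate 1 (0.50, adjusted p = 0.0366), and was 0.27 with the GC and length trend removed and the replicate number as a block (adjusted p = 0.0226). For UCK1, UCK2 and DHODH the value lay between 0.28 and 0.32, with adjusted p-values between 0.132 and 0.152. CTPS2 had a value of -0.22 (adjusted p = 0.152).

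Ratios between members within a library do not depend on the scaling of that library. They were taken from normalized counts per kb of the canonical transcript, since levels of different genes compare only per length. CTPS1 stood at 11.9, 10.8 and 11.1 times CTPS2 with DMSO and at 4.47, 4.48 and 4.98 times with Met. With FK the ratio was 9.06, 7.64 and 8.50, and with Met+FK 4.76, 4.29 and 4.72. The DMSO libraries were the highest, the FK libraries came next, and the Met and Met+FK libraries overlapped at the bottom. UCK2 to UCK1 went from 1.37 ± 0.074 with DMSO to 1.16 ± 0.028 with Met, 1.25 ± 0.023 with FK and 1.03 ± 0.063 with Met+FK (SD, n = 3). UPP1 to UMPS rose from 25.2 ± 2.19 with DMSO to 119.8 ± 3.88 with Met and 169.3 ± 4.17 with Met+FK, and was 25.8 ± 1.38 with FK. UPP1 to CAD was 10.7 ± 1.39 with DMSO, 40.03 ± 4.1 with Met, 10.8 ± 0.49 with FK and 48.15 ± 1.5 with Met+FK. Both UPP1 ratios separated the 6 libraries with metformin from the 6 without it, and Met+FK from Met. These ratios were not tested.

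**Figure D3:**
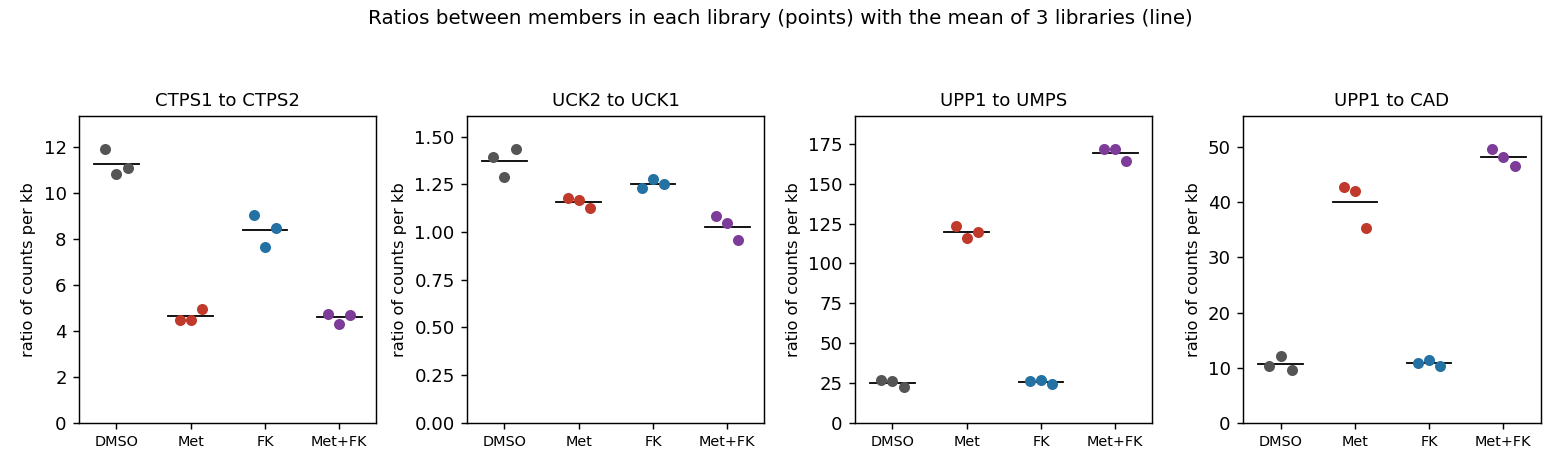
Ratios of normalized counts per kb (vertical axes, from 0) between pairs of members in each library (points), with the mean of 3 libraries as a line. CTPS1 to CTPS2 drops from about 11.3 with DMSO to 4.64 with Met and 4.59 with Met+FK and is 8.40 with FK, and the ratios of UPP1 to UMPS and to CAD are high only in the libraries with metformin.

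Among the members, per-kb levels with DMSO ran from 180.8 for DHODH and 310.3 for CTPS2 through 542 for UMPS, 581 for UCKL1, 741 for UCK1, 1015 for UCK2, 1289 for CAD and 3497 for CTPS1 to 13650 for UPP1, with CDA at 6.94. UPP1 thus stood at the 98.8th percentile of 15324 genes with DMSO and DHODH at the 48.2nd. With Met, CTPS1 stood at 1885, CAD at 1109, UCK2 at 749.5, UMPS at 367.5 and CTPS2 at 406.1 counts per kb, so CTPS2 moved above UMPS.

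Over the 12 libraries, the genes whose log2 values were most like those of UPP1, by Pearson's r among 11520 tested genes with a mean of at least 100, were LARP6 (r = 0.997), CARS (0.997), PRELID3A (0.997), PYCR1 (0.997) and TRIB3 (0.995). CARS encodes a cysteinyl-tRNA synthetase, PYCR1 an enzyme of proline synthesis and TRIB3 a pseudokinase. Since the 12 points fall into 4 treatments, these values mainly restate the order of the group means. TRIB3 went from 1597 ± 269 with DMSO to 9817 ± 1090 with Met, 1809.5 ± 236 with FK and 12753 ± 978 with Met+FK (normalized counts, SD, n = 3), and PYCR1 from 2654 ± 181 to 5250.2 ± 129, 2457.5 ± 114 and 5956 ± 249. Among the other members, CTPS2 (r = 0.86) was most like UPP1 and UMPS (r = -0.97) least. For CAD the most alike were RPTOR (0.972), SYMPK (0.958), SNRNP200 (0.951), MAPKBP1 (0.951) and CMTR1 (0.95), all with differences between Met and DMSO between -0.32 and -0.22 on the log2 scale.

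Outside the members, 42 genes of pyrimidine metabolism were listed, of which 34 were tested. With Met, 7 were higher and 15 lower than with DMSO (median log2 difference -0.17, against 0.012 over all genes tested), where 24.9% and 25.9% of all genes were called. The counts were 8 and 13 in edgeR and 5 and 14 in DESeq2. With FK 4 were higher and 5 lower (median -0.073, against -0.016), near the 11.3% and 9.84% of all genes. With Met+FK 6 were higher and 15 lower than with DMSO (median -0.17, against 0.014), where 26.1% of all genes were called in each direction. Between Met+FK and Met 0 of the 34 passed in limma or edgeR and 1, RRM2, in DESeq2, while 3 had an unadjusted p under 0.05 in limma. Between Met+FK and FK 6 were higher and 15 lower (median -0.24), where 20.5% and 21.7% of all genes were called. By a rule on level, fold and adjusted p, 14 of these genes are named in what follows.

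Of the wider pyrimidine lists, deoxypyrimidine synthesis and salvage, which supplies dTTP and dCTP for DNA, had the lowest median with Met (-0.60). Of its 12 genes, 8 were lower and 2 higher with Met, where 25.9% and 24.9% of all genes tested were called. RRM2, the regulated subunit of ribonucleotide reductase, went from 30846 ± 284.5 with DMSO to 9401 ± 223 with Met, 29749 ± 1047 with FK and 7621 ± 139 with Met+FK (normalized counts, SD, n = 3), a log2 difference of -1.71 between Met and DMSO (adjusted p = 4.22e-11 in limma). TK1, thymidine kinase, had -1.58 (adjusted p = 7.7e-08), TYMS, thymidylate synthase, -1.45 (adjusted p = 2.78e-09) and DCTPP1, a dCTP pyrophosphatase, -1.03 (adjusted p = 4.29e-07). DTYMK (-0.88), RRM1 (-0.69) and DUT (-0.52) fell too. RRM2B, the p53-inducible small subunit, had 0.64 (adjusted p = 0.0207), with libraries that spread widely (527 ± 170 with DMSO and 798 ± 113 with Met). RRM2B did not pass in DESeq2 (adjusted p = 0.0589) or without DMSO replicate 1 (0.0669), DMSO replicate 3 (0.114), Met replicate 1 (0.0575) or Met replicate 2 (0.0797), and its difference was 0.28 with the GC and length trend removed. With FK, 2 of the 12 were higher, RRM1 (0.26, adjusted p = 0.0277) among them, and 1 was lower, DCTPP1 (-0.39, adjusted p = 0.0194), against 11.3% and 9.84% of all genes tested. The call of RRM1 with FK was lost with the GC and length trend removed (0.073, adjusted p = 0.332), and both were lost without DMSO replicate 1, DMSO replicate 3 or FK replicate 2 (adjusted p between 0.05 and 0.122). All 15 genes of a proliferation list, from MKI67 to PLK1, were lower with Met as well (median log2 difference -1.09, between -1.32 and -0.62). With FK, 5 of the 15 were lower (adjusted p between 0.0255 and 0.0341 in limma) and 0 higher, against 9.84% and 11.3% of all genes tested. The differences of the 15 with FK ran from -0.45 to 0.48, and whether the 5 calls hold with 1 library left out is not shown here. The summed level of the 15 genes lay between 150490 and 158750 normalized counts with DMSO and between 73275 and 74792 with Met. Their part in the differences of the pyrimidine genes was not tested.

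Of 9 nucleotide kinases and PRPP synthetases, 5 were lower and 1 higher with Met (median log2 difference -0.32), where 25.9% and 24.9% of all genes tested were called. PRPS1, which makes the PRPP that UMPS consumes, fell from 6358 ± 332 to 3571 ± 75.8 (-0.83, adjusted p = 7.44e-07 in limma) and was at 6005 ± 452 with FK and 3517 ± 236 with Met+FK. PRPS2, a second PRPP synthetase, fell by 0.47 with Met (adjusted p = 0.000594), rose by 0.26 with FK (adjusted p = 0.0495) and had a log2 difference of -0.84 between Met+FK and FK (adjusted p = 3.67e-06). The rise of PRPS2 with FK was lost without DMSO replicate 1, DMSO replicate 3, FK replicate 2 or FK replicate 3 (adjusted p between 0.0668 and 0.219) and with the GC and length trend removed (0.10, adjusted p = 0.216). The nucleoside diphosphate kinases NME1 (-0.73) and NME4 (-0.69) fell with Met, and NME1 is uncertain because it shares exons with a read-through transcript to NME2.

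Among 13 genes of uridine catabolism and transport, 7 were tested, of which 2 were higher and 1 lower with Met, near the 24.9% and 25.9% of all genes tested. SLC29A1, the equilibrative transporter that carries uridine across the plasma membrane, went from 2595 ± 154 normalized counts with DMSO to 1290.1 ± 123 with Met, 2003.5 ± 222.5 with FK and 1336.5 ± 40.1 with Met+FK (SD, n = 3). Its log2 difference was -1.01 between Met and DMSO (adjusted p = 8.93e-07 in limma), -0.38 between FK and DMSO (adjusted p = 0.0231) and -0.58 between Met+FK and FK (adjusted p = 0.000179). Its call with FK alone was lost without DMSO replicate 1, DMSO replicate 3 or FK replicate 2 (adjusted p between 0.0634 and 0.112). UPP2, the second uridine phosphorylase, had a mean of 1.07 normalized counts and was among the 6 genes too low to test, as were the concentrative transporters SLC28A1, SLC28A2 and SLC28A3. Of 8 nucleotidases, which remove phosphate from nucleotides, 6 were tested, and 2 were higher and 1 lower with Met, near the same shares of all genes. NT5M, the mitochondrial nucleotidase, was 0.60 higher with Met+FK than with FK on the log2 scale (adjusted p = 0.000825).

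**Figure D4:**
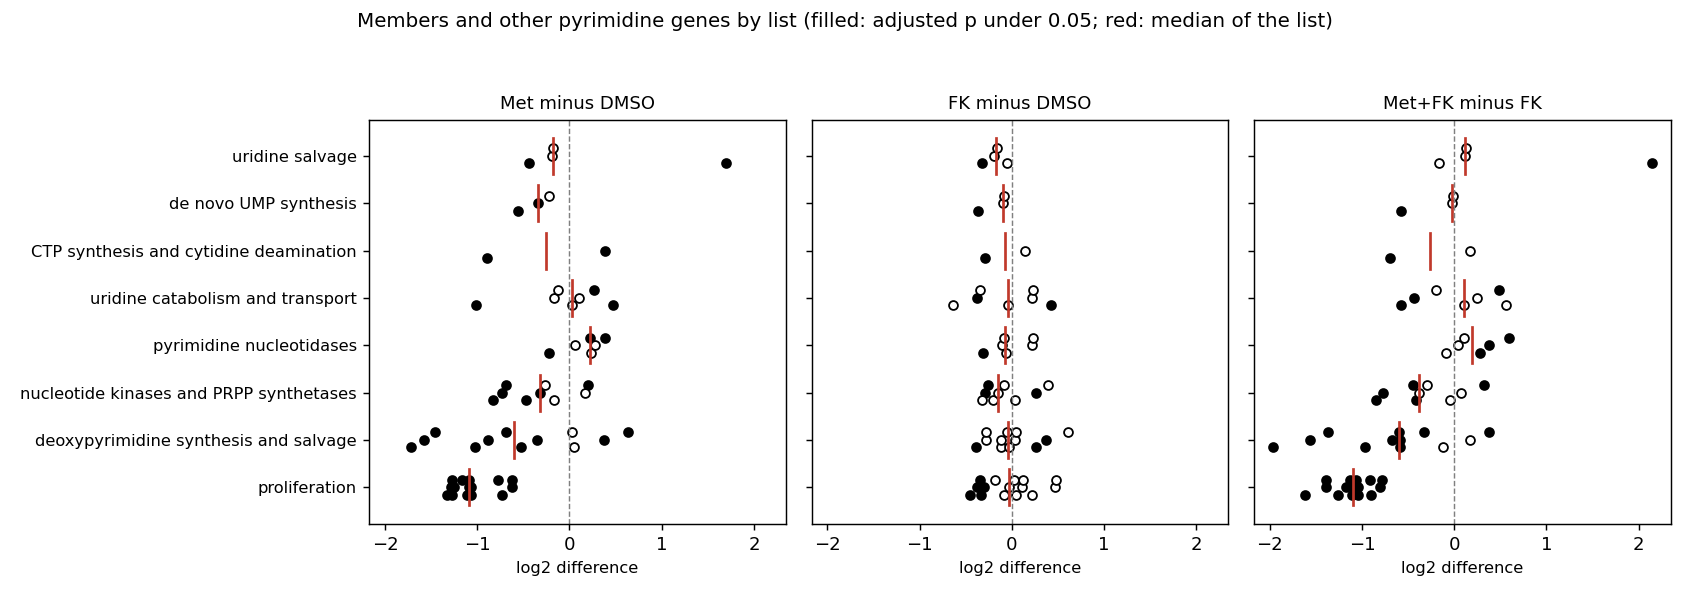
Log2 difference (horizontal axes) of each tested gene (circles, filled where the adjusted p was under 0.05) in the member lists and the wider lists, with the median of each list in red, for Met against DMSO, FK against DMSO and Met+FK against FK. UPP1 stands apart at 1.69 with Met, the deoxypyrimidine list has its median at -0.60 and the proliferation list at -1.09, and with FK alone all 3 member lists have medians between -0.17 and -0.073.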

How the data were processed

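RNA of 12 libraries of KP4 cells was depleted of ribosomal RNA and sequenced in pairs. Per the study's methods, the authors used cutadapt for trimming, STAR for alignment to hg38, featureCounts for counting and DESeq2 for normalization. The annotation and strand setting are not given in the sources used here. The deposited values are a signal that is never negative, namely gene counts divided by a size factor per library. Whole read pairs were recovered from the steps of the values (100% whole within 0.01), at 30667735 to 41052203 pairs per library, and 9803 genes had none. Samples were grouped by their labels, and columns were matched by name.

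Treatments were compared two-sided with limma-trend (R 4.3.3, limma 3.58.1) on log2(normalized count + 1), fitting all 12 libraries with a mean per treatment, and with Benjamini-Hochberg adjustment over the 15376 genes that averaged 10 or more. A log2 difference on this scale understates changes of low genes. Whole read pairs were also tested with edgeR 4.0.16 and DESeq2 1.42.0. Scripts were tested on simulated data. Other alternatives were the pseudocount, the filter, TMM or equal totals, fits on fewer libraries, a GC and length trend removed, and replicate number as a block. Same-numbered libraries deviated together between DMSO and FK (r between 0.219 and 0.42) and between Met and Met+FK (r between 0.171 and 0.226). For the other groups they did so in some pairs and not in all (r between 0.0129 and 0.403). With the GC and length trend removed, these r lay between 0.131 and 0.171, between 0.0738 and 0.159, and between -0.0282 and 0.144 in the same order, so the groups differed less. In both comparisons the blocked fit left the calls of the 9 tested members unchanged, while calls among all genes went from 3251 to 6854 and from 15 to 120. Positions are those of the deposited table, 1-based. Transcript length and GC came from GENCODE 44 and promoters from RefSeq. The members and lists were chosen with earlier results of these data known. The rule named all members, and genes of the wider lists that averaged 100 or more with an adjusted p under 0.05 and a fold over 1.5 in any comparison of treatments.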

Additional observations from a re-analysis of the deposited data

How the results depend on the processing

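Against DMSO, Met and Met+FK each changed 6 members, and the alternatives gave between 5 and 8 for Met and 6 or 7 for Met+FK. The seventh was CDA when all genes with any value above 0 entered the fit (log2 difference -1.44, adjusted p = 0.0421), at 0 to 6 read pairs per library. For FK against DMSO, 3 members passed, and 0 did when only the libraries compared were fitted, while leaving out 1 library gave between 0 and 4. For Met+FK against Met, 1 member passed, 0 when all genes entered the fit and 0 in every fit without 1 library. For Met+FK against FK, 3 passed, where 42.1% of all genes tested were called. With the replicate block, with the GC and length trend removed and with both, 5 passed. The calls among all genes were then 52.5%, 54.3% and 59% in the same order. For the interaction, 0 passed, against 4 with the replicate block (UPP1, UCK1, UCK2 and DHODH), a fit that called 4914 of 15376 genes against 9 without the block, 1 with DESeq2, 1 with the GC and length trend removed together with the block, and between 0 and 1 without 1 library. The fall of UMPS with FK passed only with the trend removed and the block (adjusted p = 0.0466). With the replicate block, UCK1 and CAD also passed between Met and DMSO (adjusted p = 0.0425 and 0.0103), where calls among all genes rose from 50.9% to 60.2%. Same-numbered libraries of those 2 groups deviated together in some pairs and not in all (r between 0.0129 and 0.328). Of 1017 values of single members under alternatives, 937 kept their direction and side of the threshold, 26 gained and 22 lost the call, and 32 that passed in neither fit changed sign. Equal totals moved the median of all genes by 0.12 on the log2 scale between Met and DMSO, and under it the call of DHODH was lost (adjusted p = 0.0705). The cause of these changes was not tested. Depth limits CDA but not the other members, of which DHODH had the fewest read pairs (604 in its lowest library).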
